A study of Mus musculus with 2 samples.

Results

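Collagens other than collagen VI were followed in single cells of the mouse endometrium, the lining of the uterus. They were all genes whose symbol is Col, a number, a and a number, leaving out the collagen VI chains, which gave 38 of the 19070 genes measured. The study compared 1 library from Erbb3 f/f females, whose floxed Erbb3 alleles are intact and which served as controls, with 1 library of the Erbb3 d/d genotype, whose labels describe a stromal deletion of Erbb3, a receptor of the ErbB family. Both samples were taken on day 3 of pregnancy. The labels do not name the Cre driver or give the number of females behind a library, and Erbb3 d/d cells come from a single library, so no test between genotypes is possible and all intervals are 95% intervals that cover counting error only.

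Collagens are trimers of chains that share a Gly-X-Y triple helix. Fibrillar collagens (types I, II, III, V, XI, XXIV and XXVII) form the cable-like fibrils of the stroma, type IV forms the sheet of the basement membrane under epithelium and around vessels, type VII anchors basement membranes to the stroma below, and the fibril-associated types (IX, XII, XIV, XVI and others) decorate fibril surfaces. Types XV and XVIII, the multiplexins, are proteoglycans of the basement membrane zone. In the uterus, stromal fibroblasts make most of the fibrillar matrix that is remodelled around implantation.

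Type IV chains assemble as 3 kinds of trimer from 6 genes that lie in 3 head-to-head pairs, each pair sharing a region between the starts: Col4a1 with Col4a2, Col4a3 with Col4a4, and Col4a5 with Col4a6. Because Col4a6 and Col18a1 carried the lowest ratios among the well-counted collagens of stroma-like cells, the 250 bases before their annotated starts are shown, with Col4a5 for comparison; they are RefSeq windows on GRCm38.p6, 5′ to 3′ on the strand of the gene, with 3 short motifs in capitals, each searched on both strands: the CCAAT box by those letters, the TATA box by the letters TATAAA and the GC box by the letters GGGCGG. Col4a6 lies on the minus strand at chrX:141474077-141474326 and Col4a5 on the plus strand at chrX:141475169-141475418, and 842 bases separate these windows. Col18a1, on the minus strand, has 2 annotated starts, with windows at chr10:77113706-77113955 and chr10:77166531-77166780.
Col4a6: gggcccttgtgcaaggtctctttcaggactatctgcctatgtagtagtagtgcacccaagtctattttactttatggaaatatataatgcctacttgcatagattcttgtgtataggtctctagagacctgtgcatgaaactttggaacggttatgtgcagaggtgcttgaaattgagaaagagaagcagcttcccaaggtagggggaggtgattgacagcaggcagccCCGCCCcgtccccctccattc
Col4a5: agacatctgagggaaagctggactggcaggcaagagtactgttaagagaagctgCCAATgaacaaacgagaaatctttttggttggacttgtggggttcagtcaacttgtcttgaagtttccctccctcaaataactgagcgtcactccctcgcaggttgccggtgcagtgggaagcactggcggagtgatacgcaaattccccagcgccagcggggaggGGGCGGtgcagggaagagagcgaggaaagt
Col18a1, start at the lower coordinate: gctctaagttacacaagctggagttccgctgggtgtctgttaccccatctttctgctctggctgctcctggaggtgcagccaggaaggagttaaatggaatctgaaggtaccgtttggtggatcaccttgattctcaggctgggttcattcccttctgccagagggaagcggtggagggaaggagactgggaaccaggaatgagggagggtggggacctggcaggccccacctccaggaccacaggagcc
Col18a1, start at the higher coordinate: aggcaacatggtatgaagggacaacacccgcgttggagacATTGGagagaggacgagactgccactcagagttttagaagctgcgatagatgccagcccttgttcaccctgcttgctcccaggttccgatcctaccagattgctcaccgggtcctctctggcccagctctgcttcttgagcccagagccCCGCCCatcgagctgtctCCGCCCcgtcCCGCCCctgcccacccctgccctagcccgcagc
Col4a6 and Col4a5 each held 1 GGGCGG, and only Col4a5 of this pair held a CCAAT. The Col18a1 window at the higher coordinate held 3 GGGCGG and 1 CCAAT, and the other held none of the 3 motifs. GGGCGG was in 54.8% of the 31 windows of the 29 collagens in the table, against 32.7% of all 32851 windows; CCAAT was in 38.7% against 33.8%, and TATAAA in 16.1% against 12.4%. These matches are letters in a window, not measured binding sites.

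The f/f library held 5783 barcodes and 6819591 UMIs (unique molecular identifiers), and the d/d library 2125 barcodes and 2866862 UMIs. After filtering, 5501 and 1825 cells were used, with medians of 809 and 763 UMIs. Cells were assigned to classes by marker genes that include no collagen, which left 39.7% of f/f and 47.6% of d/d cells without a class. Erbb3 itself was sparse in stroma-like cells, with 8 UMIs in f/f (8.88 CPM, UMIs of the gene per 1000000 UMIs of the class). In d/d it had 0 of 133522 UMIs, an interval of up to 27.6 CPM, so a loss was not detectable at this depth. Among epithelium-like cells it stood at 77.6 CPM in f/f against 45.0 in d/d. No full barcode was shared, but 158 barcodes agreed in their first 16 bases between libraries; leaving those cells out kept Col4a6 at -2.08 and the summed collagens of stroma-like cells at 0.04 on the log2 scale.

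Stroma-like cells numbered 968 in f/f against 163 in d/d (900410 and 133522 UMIs), and all 10 stromal markers were detected in both. Their median mitochondrial share was 1.07% in f/f against 2.49% in d/d. The epithelial markers of the gate summed to 192 and 262 CPM. A further 6 epithelial genes not used for gating summed to 241 CPM in f/f against 434 in d/d. The part of any of these in the results below was not tested. All 38 collagens had at least 1 UMI in the cells used: 25 had 100 or more, 7 had 20 to 99, and Col2a1, Col8a1, Col9a1, Col10a1, Col17a1 and Col19a1 had 17 or fewer. Flex libraries read each gene through its own probes, whose number per gene is not in the files used here, so levels are compared within a gene and not between genes.

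Stroma-like cells had the highest collagen share of the classes, while cells without a class held 42.3% of all collagen UMIs of f/f and 54.9% of those of d/d. Collagens made up 1.16% of the UMIs of f/f and 1.20% of those of d/d stroma-like cells, against 0.122% and 0.124% in epithelium-like cells. Per stroma-like cell, the median share was 1.14% in f/f (10th to 90th percentile 0.504% to 1.92%) against 1.12% in d/d (0.402% to 2.05%). In f/f, 13 of the 16 collagens with at least 100 UMIs over both classes were more than 2-fold higher in stroma-like than in epithelium-like cells, where 12.2% of all genes counted in the same way were. In d/d it was 6 of 6, against 4.5% of genes.

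**Figure D1:**
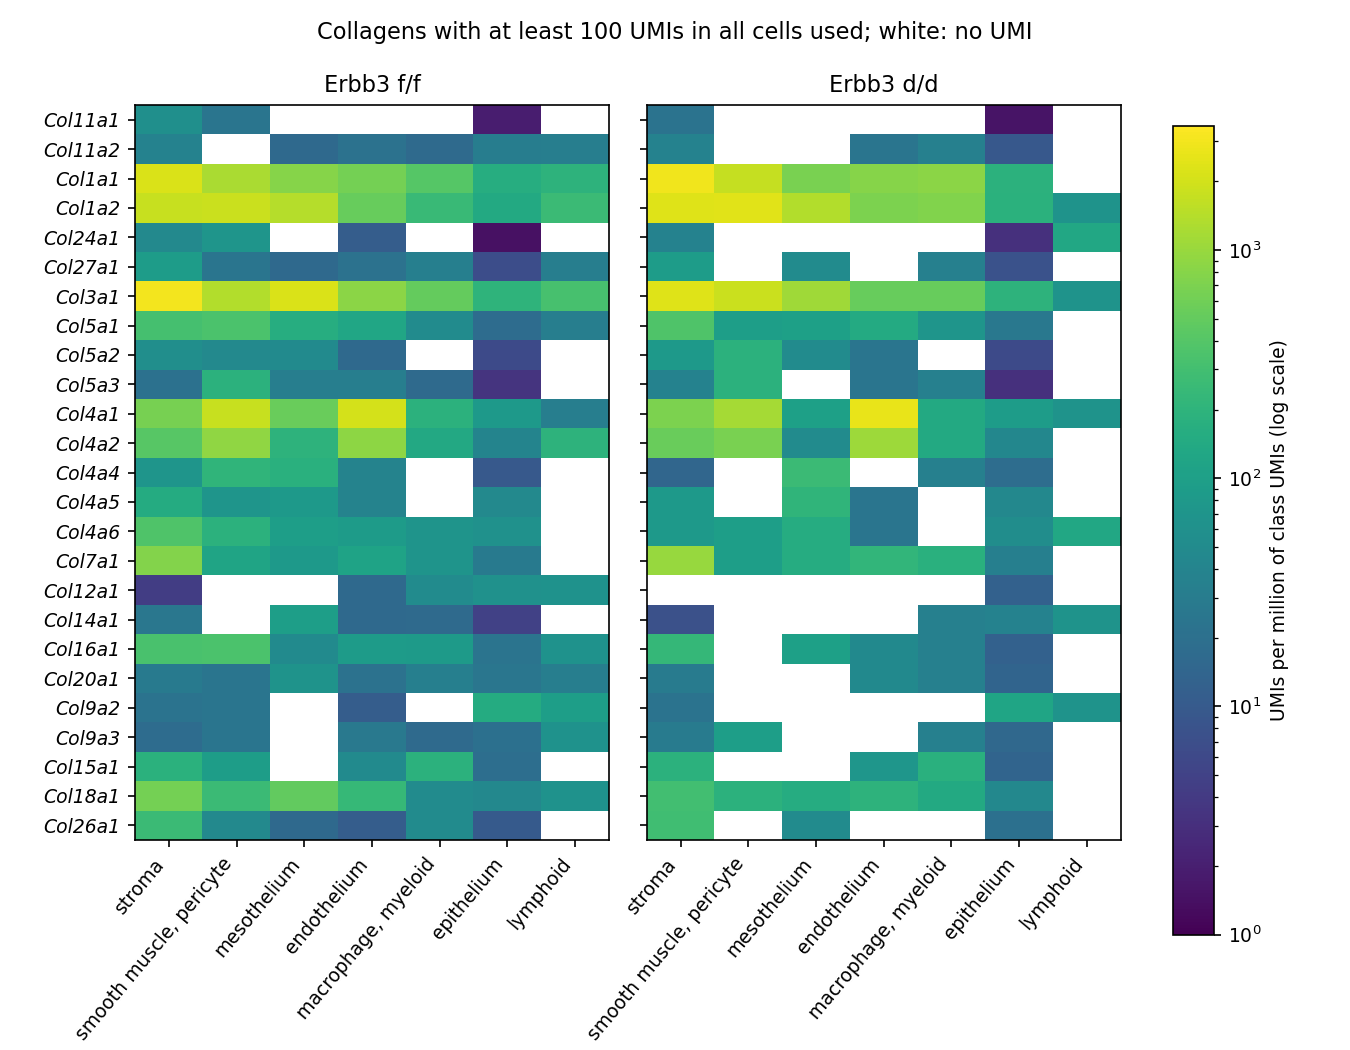
CPM of class UMIs (colour, log scale) for the 25 collagens with at least 100 UMIs in all cells used, by gated cell class in the Erbb3 f/f library (left) and the Erbb3 d/d library (right); white marks 0 UMIs. Col1a1, Col1a2 and Col3a1 are bright in stroma, and Col4a1 and Col4a2 in endothelium and in smooth muscle and pericyte. Col9a2 is highest per gene in epithelium.

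The fibrillar collagens of stroma-like cells did not all lie on the same side of 0. Col3a1, the single chain of type III collagen, stood at 2992 CPM in f/f (2880 to 3107) against 2367 in d/d (2113 to 2643), a log2 ratio of -0.34 (-0.51 to -0.17). The chains of type I collagen were on the other side of 0: Col1a1 at 2182 and 2966 CPM (0.44, 0.28 to 0.60) and Col1a2 at 1741 and 2314 (0.41, 0.23 to 0.59). None of the 3 passed 2-fold. Their sum with the other fibrillar genes was 7541 CPM in f/f against 8321 in d/d (0.14, 0.05 to 0.23), a ratio that was 0.04 with cells thinned to 500 UMIs.

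Counted as type I UMIs per type III UMI, a ratio chosen after the values were seen, stroma-like cells gave 1.31 in f/f against 2.23 in d/d, a log2 change of 0.77 (0.56 to 0.98). The ratio was higher in d/d in each stromal subtype as well: 1.33 and 2.19 in Pth1r Scube1 stroma, 1.29 and 2.17 in Col6a4 Adam12 stroma, and 1.30 and 2.63 in the remaining stroma-like cells. It was also higher in d/d outside the stroma, at 1.38 and 2.82 in endothelium-like cells, 1.30 and 3.00 in macrophage-like cells and 1.43 and 2.32 in cells without a class, while the interval of its change included 0 in epithelium-like cells (0.34, -0.03 to 0.71) and in mesothelium-like cells (1.02 and 1.86, 0.87, -0.02 to 1.79). Smooth muscle and pericyte-like cells, with 59 and 19 Col3a1 UMIs, stood at 2.22 and 2.26. In f/f epithelium-like cells the fibrillar transcripts were near the level of other stromal genes: Col3a1 was at 6.71% and Col1a1 at 7.29% of the stromal level, and 5 stromal genes not used for gating with at least 20 stromal UMIs (Mmp2, Dpt, Islr, Mfap4 and Twist2) at 5.65% to 13.5%. In d/d, Col3a1 was at 8.33% and Col1a1 at 6.39%, above the 3.32% to 5.92% of the 3 such genes with enough UMIs there. All 6 stromal genes not used for gating summed to 1576 and 1962 CPM in stroma-like cells. They summed to 346 and 460 CPM in endothelium-like cells and to 136 and 457 CPM in macrophage-like cells. The part of stromal RNA in the ratios outside the stroma was not tested.

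**Figure D2:**
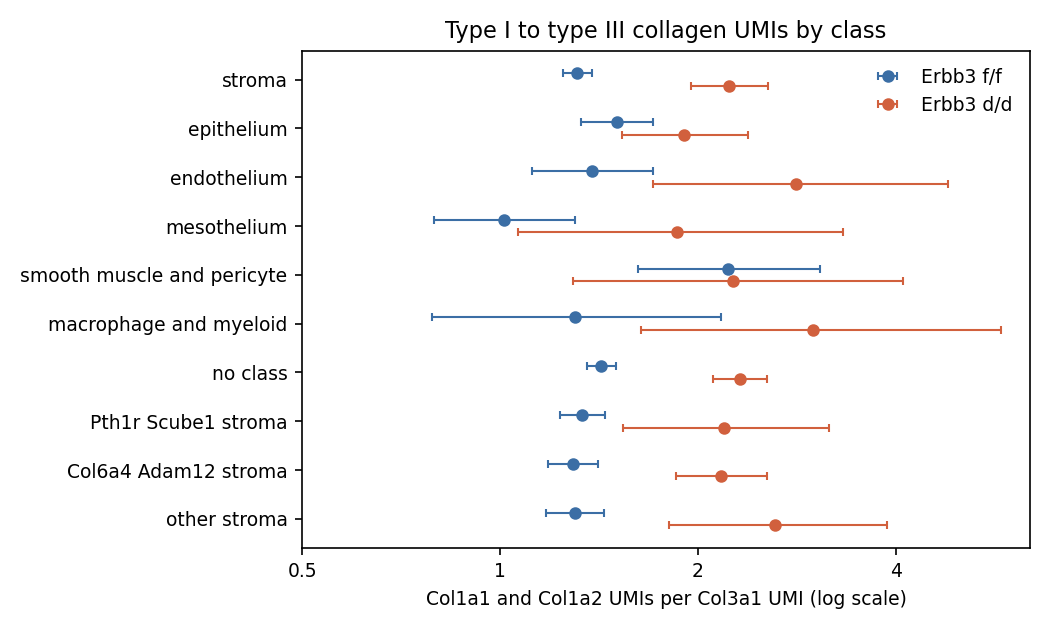
Col1a1 plus Col1a2 UMIs per Col3a1 UMI (log axis) in each gated class and stromal subtype of the 2 libraries, with exact 95% binomial intervals for counting error. In stroma the f/f value of 1.31 and the d/d value of 2.23 have intervals that do not overlap; in smooth muscle and pericyte the values of 2.22 and 2.26 nearly coincide.

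The minor fibrillar genes were less well counted. Col5a1, whose chain starts and sizes type I fibrils, stood at 312 CPM in f/f against 367 in d/d (0.23, -0.23 to 0.68), and Col5a2 at 56.6 and 82.4 (51 and 11 UMIs). Col11a1 had 53 UMIs in f/f against 3 in d/d (-1.39, -3.71 to 0.24), past 2-fold but with an interval that includes 0. It fell short of 2-fold under looser (-0.87) and stricter (-0.68) gates and by clusters (-0.56). Col27a1 (83 and 12 UMIs), Col24a1 (42 and 5) and Col11a2 (34 and 5) lay within 2-fold.

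Among the type IV genes of stroma-like cells, Col4a6 had an interval below those of Col4a1 and Col4a2, as did Col4a4 with 63 and 2 UMIs. The intervals of Col4a5 and Col4a3 overlapped those of Col4a1 and Col4a2. Col4a1, part of the trimer found in nearly all basement membranes, was at 665 CPM in f/f against 697 in d/d (0.07, -0.26 to 0.38), and its partner Col4a2 at 423 and 539 (0.35, -0.03 to 0.72). Col4a6 was at 373 CPM in f/f (334 to 415, 336 UMIs) against 82.4 in d/d (41.1 to 147, 11 UMIs), a log2 ratio of -2.18 (-3.20 to -1.32). This was the lowest ratio among the 13 collagens with at least 100 UMIs. Its head-to-head neighbour Col4a5, on the X chromosome like Col4a6, was at 152 and 82.4 CPM (-0.89, -1.92 to -0.00), short of 2-fold, and at 0.03 under a stricter gate.

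Col4a3 and Col4a4, whose products join the α5 chain in specialised basement membranes, were below 100 UMIs: 32 and 1 for Col4a3, 63 and 2 for Col4a4. Their log2 ratios were -2.25 (-7.59 to 0.34) and -2.22 (-5.30 to -0.31). Col4a3 was at -0.14 under a stricter gate and -0.75 where stroma was taken from clusters, no longer past 2-fold, and Col4a4 at -1.25 by clusters. Genes were also summed by pair, a grouping made after the values were seen. Col4a5 and Col4a6 gave -1.67 (-2.36 to -1.06), Col4a3 and Col4a4 gave -2.23 (-4.53 to -0.64) and Col4a1 and Col4a2 gave 0.18 (-0.06 to 0.42). The Col4a3 and Col4a4 sum rests on only 3 d/d UMIs. Cells without a class counted this pair better (150 f/f UMIs, 47 d/d UMIs). Per 100 Col4a1 and Col4a2 UMIs, these cells held 9.38 of the pair (f/f) against 8.67 (d/d). Taken singly there, Col4a4 did not differ (-0.01, -0.55 to 0.52), whereas Col4a3 was lower (37 and 5 UMIs, -1.47, -3.17 to -0.11). For every 100 UMIs of Col4a1 and Col4a2, stroma-like cells held 48.3 UMIs of Col4a5 and Col4a6 in f/f against 13.3 in d/d. The values were 48.7 and 17.4 in Pth1r Scube1 stroma (190 and 4 UMIs of the pair), 45.1 and 13.2 in Col6a4 Adam12 stroma (164 and 16) and 52.7 and 9.52 in the rest (119 and 2).

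The same ratio in epithelium-like cells was 88.1 in f/f against 74.4 in d/d. There Col4a6 stood at 62.1 and 54.3 CPM (-0.19, -0.77 to 0.36), Col4a5 at 46.1 and 45.0 (-0.03), and Col4a4, with 20 and 12 UMIs, at 9.70 and 18.6 (0.94, -0.22 to 2.05). The intervals of the Col4a5 and Col4a6 sum in stroma-like cells (-2.36 to -1.06) and in epithelium-like cells (-0.55 to 0.29) did not overlap, with 1 library on each side. With only stroma-like cells that also lay in a stromal cluster (781 and 108 cells), Col4a5 and Col4a6 had 382 UMIs in f/f against 15 in d/d.

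**Figure D3:**
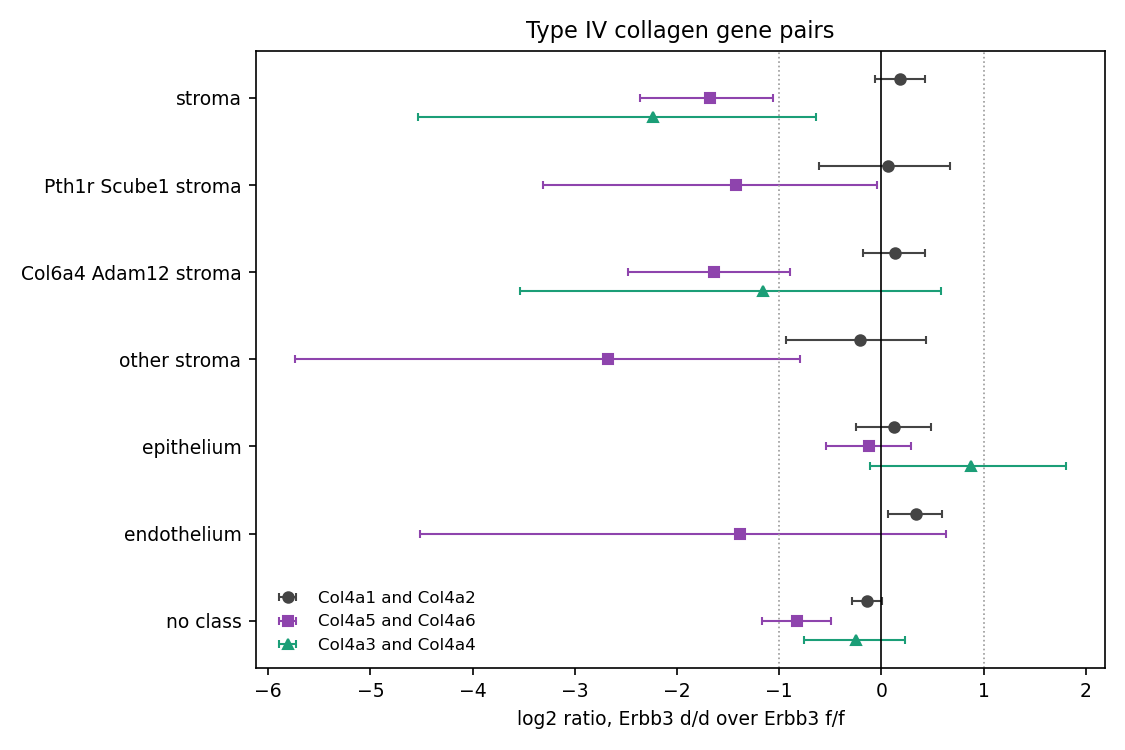
Log2 ratio of Erbb3 d/d over Erbb3 f/f for the 3 type IV gene pairs in stroma-like cells, their subtypes, epithelium-like, endothelium-like and unclassed cells, with exact 95% intervals for counting error; dotted lines mark 2-fold, and pairs with no UMI in d/d are not drawn. In stroma, Col4a5 and Col4a6 sit at -1.67 and Col4a1 and Col4a2 at 0.18; in epithelium all 3 intervals include 0.

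Col18a1, the multiplexin whose C-terminal fragment is endostatin, was the other well-counted collagen past 2-fold in stroma-like cells. It stood at 635 CPM in f/f (584 to 690, 572 UMIs) against 292 in d/d (208 to 399, 39 UMIs), a log2 ratio of -1.12 (-1.63 to -0.65). In epithelium-like cells it was at 45.1 and 45.0 CPM, and in endothelium-like cells at 236 and 194 (43 and 8 UMIs). Col15a1, the related multiplexin, was at 182 and 187 CPM in stroma-like cells (0.04, -0.63 to 0.65). The intervals of the 2 multiplexins in stroma-like cells did not overlap, by a narrow margin. In cells without a class both were lower in d/d, Col15a1 at -1.02 (-1.63 to -0.45) and Col18a1 at -0.83 (-1.14 to -0.54). Col18a1 was past 2-fold in the gated cells but at -0.76 where stroma was taken from clusters and at -0.90 with all deposited barcodes.

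In all, 2 of the 13 collagens with at least 100 UMIs in stroma-like cells were past 2-fold, both lower in d/d. Of all 3181 genes counted the same way, 6.88% were past 2-fold, 5.5% lower and 1.38% higher. The median log2 ratio was 0.07 over the 13 collagens and -0.12 over all genes. With a minimum of 20 UMIs, 8 of 28 collagens were past 2-fold (7 lower and 1 higher), against 16.6% of genes (11.3% lower and 5.29% higher). The 1 that was higher was Col25a1, a transmembrane collagen, with 12 UMIs in f/f against 8 in d/d (2.17, 0.67 to 3.58), and Col22a1 (24 and 1) and Col14a1 (23 and 1) were among those lower.

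Col7a1, the anchoring fibril chain, had its highest level among the gated classes in stroma-like cells in both libraries. Its UMIs numbered 683 in f/f and 133 in d/d there, and 456 and 153 in cells without a class. It stood at 759 CPM in f/f (703 to 818) against 996 in d/d (834 to 1180) in stroma-like cells, a log2 ratio of 0.39 (0.11 to 0.66). Epithelium-like cells held it at 29.1 and 34.2 CPM, 3.83% and 3.43% of the stromal level. These shares were not above the span of the stromal genes not used for gating. Col16a1, a fibril-associated collagen, was at 336 and 232 CPM (-0.54, -1.12 to 0.00), and Col26a1 at 258 and 285 (0.14, -0.39 to 0.64).

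**Figure D4:**
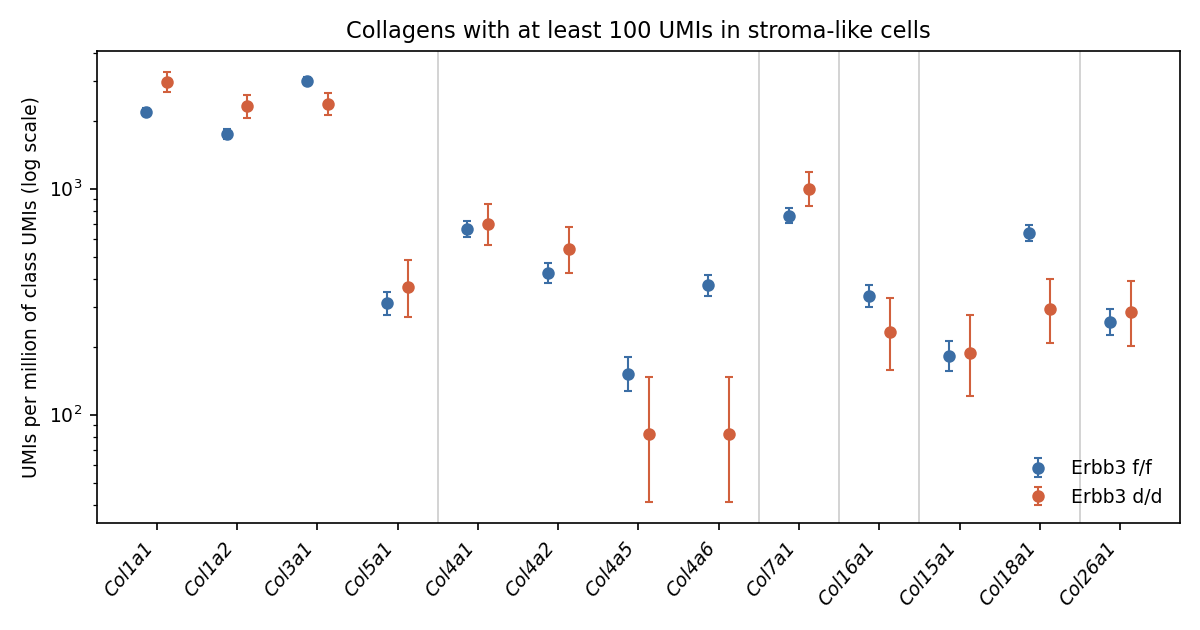
CPM of class UMIs (log axis) for the 13 collagens with at least 100 UMIs in stroma-like cells, in Erbb3 f/f and Erbb3 d/d, with exact 95% Poisson intervals; grey lines separate collagen families. Col4a6 and Col18a1 are lower in d/d by more than 2-fold, and Col3a1 and the type I genes shift in opposite directions.

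Stroma-like cells were divided by whether they held more Pth1r and Scube1 UMIs (382 f/f and 25 d/d cells) or more Col6a4 and Adam12 UMIs (290 and 103). Within f/f, 0 of 13 counted collagens were past 2-fold between them, where 0.229% of genes were higher and 0.172% lower in Pth1r Scube1 stroma, so the count is that of genes in general. The summed collagens were at 11650 and 12365 CPM, a log2 ratio of -0.09 (-0.15 to -0.02), which turned to 0.08 under TMM scaling. Col4a5 had the lowest ratio, at 134 and 201 CPM (-0.58, -1.16 to -0.01). Within d/d the sums were 12516 and 12948 CPM (-0.05, -0.25 to 0.15).

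Between genotypes, Col7a1 was past 2-fold in 1 subtype only; the difference between subtypes was not tested. In Pth1r Scube1 stroma it was at 823 CPM in f/f (307 UMIs) against 1896 in d/d (40 UMIs in 25 cells), a log2 ratio of 1.20 (0.69 to 1.68). The TMM factors of this subtype were 0.878 in f/f and 1.14 in d/d, so TMM scaling lowers this ratio. By these factors it falls short of 2-fold under that scaling. In Col6a4 Adam12 stroma Col7a1 was at 783 and 940 CPM (0.26, -0.12 to 0.64), and in the remaining stroma-like cells at 632 and 457 CPM (154 and 12 UMIs, -0.47, -1.45 to 0.38). Within d/d, Col7a1 was the 1 of 4 counted collagens past 2-fold between subtypes (1.01, 0.43 to 1.58). Only 45 genes were counted there, and the 1 that was higher (2.22%) was Col7a1 itself, so this share gives no separate background. Col4a6 was lower in d/d in both, with 140 and 1 UMIs in Pth1r Scube1 stroma (-2.98, -8.30 to -0.48) and 107 and 10 in Col6a4 Adam12 stroma (-1.70, -2.80 to -0.77).

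Beside Col7a1 and Col4a6, Col16a1 was past 2-fold in Pth1r Scube1 stroma (116 and 2 UMIs, -1.71), with an interval including 0 (-4.78 to 0.17). So 3 of the 11 counted collagens were past 2-fold there, against 14.9% of genes (3.06% higher and 11.8% lower). In Col6a4 Adam12 stroma 2 of 11 were, Col4a6 and Col18a1 (194 and 27 UMIs, -1.13, -1.77 to -0.54), against 4.21% (1.46% higher and 2.76% lower). Col18a1 stood at 617 and 427 CPM in Pth1r Scube1 stroma (-0.53, -1.68 to 0.42), an interval that overlaps the one in the other subtype. Col1a1 was higher in d/d in both subtypes (0.36, -0.03 to 0.73, and 0.53, 0.33 to 0.74) and Col3a1 lower (-0.42, -0.88 to -0.00, and -0.26, -0.47 to -0.05).

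In f/f, 2 of the 16 counted collagens stood higher in epithelium-like than in stroma-like cells. Col9a2, a fibril-associated chain best known from cartilage, stood at 150 CPM in f/f (310 UMIs) against 120 in d/d (77 UMIs) in epithelium-like cells, and at 22.2 and 22.5 CPM in stroma-like cells. Within f/f its stroma over epithelium ratio was -2.76 (-3.49 to -2.11). Col12a1, which binds along type I fibrils, was at 62.5 CPM in f/f epithelium-like cells (129 UMIs) and at 4.44 in stroma-like cells (4 UMIs), a ratio of -3.82 (-5.71 to -2.42). These were the 2 of 16 counted collagens more than 2-fold lower in stroma, against 17.4% of genes. That share is no more than that of genes in general.

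Col12a1 was also the collagen that differed most between the genotypes in epithelium-like cells among those counted. It was at 62.5 CPM in f/f (52.2 to 74.3) against 12.4 in d/d (5.36 to 24.5, 8 UMIs), a log2 ratio of -2.33 (-3.57 to -1.31). It was 1 of 10 collagens past 2-fold there, against 9.16% of genes (4.66% lower), so the share is near the background. Col9a2 lay at -0.33 (-0.71 to 0.03). Below 100 UMIs, Col11a2, a fibrillar chain, had 66 and 6 UMIs (-1.78, -3.28 to -0.58) and Col14a1, a relative of type XII, had 10 and 24 (2.94, 1.82 to 4.17). Col14a1 stood at 4.85 CPM and 37.3 CPM there, while stroma-like cells held 23 and 1 of its UMIs.

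**Figure D5:**
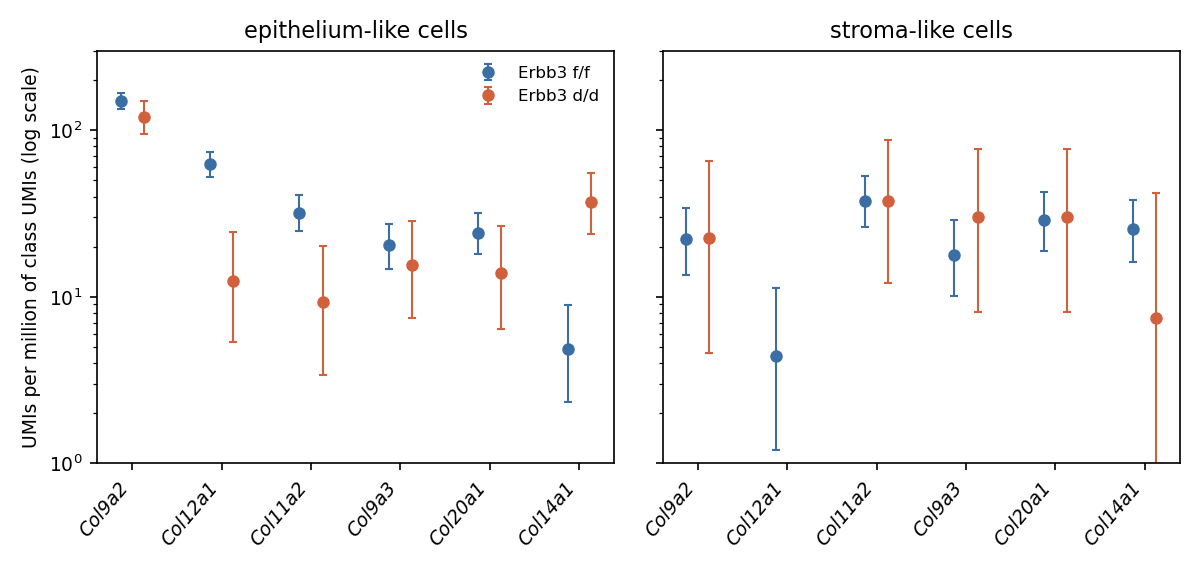
CPM of class UMIs (log axis) for 6 fibrillar and fibril-associated collagens, picked after their values were seen, in epithelium-like (left) and stroma-like (right) cells of Erbb3 f/f and Erbb3 d/d, with exact 95% Poisson intervals; Col12a1 had 0 UMIs in d/d stroma-like cells and is not drawn there, and the lower end of the Col14a1 interval in d/d stroma-like cells lies below the axis. In epithelium-like cells Col12a1 stands at 62.5 CPM in f/f against 12.4 in d/d and Col14a1 stands at 4.85 and 37.3.

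The epithelium-like cells of the libraries differed in their makeup, and its part in these values was not tested. In clusters computed without collagens, the one led by Septin4, Tmod1 and Slc5a11 held 765 f/f and 10 d/d gated cells, while the one led by the mitotic genes Pimreg, Pif1 and Troap held 272 and 277. Inside 2 clusters with over 100 cells of each library, Col12a1 was also lower in d/d, with 17 and 2 UMIs in the mitotic cluster (40.5 and 6.30 CPM), and 29 and 2 in the cluster led by Clca3b, Clca3a2 and Ecm1 (102 and 16.1 CPM). Col14a1 had 4 UMIs in f/f against 15 in d/d in the mitotic cluster (9.52 and 47.3 CPM). Col9a2 was present in each of these clusters, at 181 and 132 CPM in the mitotic one and 144 and 129 in the Clca3b one.

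Col20a1 and Col9a3, further fibril-associated chains, were at similar levels in epithelium-like and stroma-like f/f cells, at 84.0%, with 50 and 26 UMIs, and 115%, with 42 and 16 UMIs, of the stromal level. Col11a2 was at 84.7%. In f/f, Col4a5 (30.3%) and Col4a6 (16.6%) also stood above the 5.65% to 13.5% span of the stromal genes not used for gating. Col4a1 (12.4%), Col4a2 (9.51%), Col5a1 (5.75%), Col16a1 (6.77%) and Col26a1 (3.95%) did not. How the UMIs of those stromal genes came to be in epithelium-like cells was not tested. In d/d, where that span was 3.32% to 5.92%, Col4a1 (12.9%), Col4a2 (8.06%), Col5a1 (7.19%) and Col26a1 (7.09%) lay above it and Col16a1 (5.35%) did not.

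Endothelium-like cells (187 f/f and 50 d/d) stood above stroma-like cells in Col4a1 and Col4a2. In f/f, smooth muscle and pericyte-like cells did so as well, with Col4a1 at 1739 CPM (1366 to 2183) and Col4a2 at 917. In endothelium-like cells Col4a1 was at 2073 CPM in f/f (1869 to 2293) against 2639 in d/d (2167 to 3184), a log2 ratio between libraries of 0.35 (0.03 to 0.66). Col4a2 was at 867 and 1065 CPM (0.30, -0.22 to 0.79). Against stroma-like cells of the same library, Col4a1 was higher by 1.64 (1.45 to 1.83) in f/f and 1.92 (1.51 to 2.34) in d/d on the log2 scale, and Col4a2 by 1.03 and 0.98. These were the 2 of 13 collagens past 2-fold higher in f/f endothelium, against 4.63% of genes, and the other 11 were more than 2-fold lower, against 11.6%. None of the 5 counted collagens was past 2-fold between genotypes there, where 4.33% of genes were; Col3a1 was lowest (155 and 22 UMIs, -0.67, -1.39 to -0.02), moving to -0.27 without the barcodes that share 16 bases.

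Smooth muscle and pericyte-like cells were few (50 and 15), and 5 of their 12 markers were at 0 in d/d: Synm, Rgs5, Notch3, Kcnj8 and Cspg4. In f/f they held Col4a1 at 1739 CPM (74 UMIs) and Col4a2 at 917 (39 UMIs), 1.39 (1.02 to 1.74) and 1.12 (0.60 to 1.59) above stroma on the log2 scale, the 2 of 13 counted collagens more than 2-fold higher, against 3.9% of genes; 5 were more than 2-fold lower, against 18.3%. Col5a3, with 8 UMIs, stood at 188 CPM against 21.1 in stroma-like cells (3.16, 1.75 to 4.41). Col1a2, the only collagen counted there, was at 1833 CPM in f/f against 2397 in d/d (0.39, -0.32 to 1.05).

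Mesothelium-like cells (80 and 23), which cover the outer surface of the uterus, held Col3a1 at 2179 CPM in f/f against 1087 in d/d (133 and 21 UMIs, log2 interval -1.74 to -0.33). Col1a2 was at 1409 and 1345 CPM (-0.07). Col4a1 had 33 UMIs in f/f against 2 in d/d (-2.39, -5.49 to -0.42), and Col18a1 30 and 3. Macrophage-like and lymphoid-like cells had no collagen with 100 UMIs. In macrophage-like cells Col1a1 had 24 UMIs in each library (408 and 844 CPM). The 6 stromal genes not used for gating had 8 and 13 UMIs there (136 and 457 CPM). The part of stromal RNA in the macrophage values was not tested.

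Of 18 hydroxylase and chaperone genes, 12 were counted in stroma-like cells and 0 were past 2-fold, against 6.88% of all genes, with a median of -0.13 against -0.12 over all genes. Serpinh1, the collagen-specific chaperone HSP47, had the lowest ratio of these, at 1399 CPM in f/f against 741 in d/d (-0.92, -1.23 to -0.62), and it was also lower in epithelium-like cells (205 and 126 CPM, -0.70). P4ha1, a prolyl 4-hydroxylase subunit, was at 152 and 187 CPM (0.30, -0.38 to 0.92), and Plod2, a lysyl hydroxylase, had 87 and 9 UMIs (-0.52).

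Of the 13 processing and crosslinking genes only Bmp1, which trims fibrillar procollagens, was counted (430 and 345 CPM, -0.32). Of the 9 receptors, Ddr2 was at 265 and 180 CPM (-0.56, -1.23 to 0.05) and Mrc2 at 322 in both libraries. Ddr2, a collagen-binding receptor kinase, had 68 and 50 UMIs in epithelium-like cells (33.0 and 77.6 CPM, 1.24, 0.68 to 1.78). The other receptors counted there were lower in d/d: Ddr1 at 108 and 65.2 CPM (-0.73, -1.24 to -0.25) and the integrin chain gene Itga10 at 41.2 and 24.8 CPM (-0.73, -1.60 to 0.05). Of the 13 matrix genes that accompany fibrils, 6 were counted and 0 were past 2-fold, against the same 6.88%, Fn1 (fibronectin) having the lowest ratio at -0.49 (-0.73 to -0.26).

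Over all cells used, summed collagens were lower in d/d, at 4734 CPM in f/f against 3853 in d/d (-0.30, -0.34 to -0.26), while within stroma-like cells they were at 11616 and 11961 CPM (0.04, -0.03 to 0.12, and -0.03 with cells thinned to 500 UMIs). By subtype the sums gave 0.10 (-0.08 to 0.28) in Pth1r Scube1 stroma, 0.07 (-0.03 to 0.16) in Col6a4 Adam12 stroma and -0.37 (-0.58 to -0.17) in the remaining stroma-like cells, at 10692 and 8270 CPM. The stroma-like cells made up 17.6% of f/f and 8.93% of d/d cells and gave 40.1% and 24.3% of all collagen UMIs. In the whole-library sum, fewer stromal cells and less collagen RNA per cell cannot be told apart; the class values separate them only for gated cells. Over all cells, 4 of 25 collagens were past 2-fold, against 6.11% of genes (2.92% lower and 3.19% higher): Col4a6 (-1.19), Col18a1 (-1.01) and Col12a1 (-1.75) lower and Col14a1 (1.28) higher.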

How the data were processed

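Endometrial cells of 1 Erbb3 f/f and 1 Erbb3 d/d library were profiled with the probe-based Chromium Flex assay. The authors deposited UMI counts per gene and barcode, per the file headers made with Cell Ranger 9.0.0; mm10 and GRCm39 are both listed in the submitters' processing notes with no role, so no gene coordinates from the counting are given. Barcodes with at least 200 genes and at most 10% mitochondrial UMIs were kept, and Scrublet in scanpy 1.11.5 called 2 f/f and 5 d/d doublets, too few to rely on. A cell joined a class when at least 2 marker UMIs, and at least 66.7% of all its marker UMIs, were of that class. UMIs were summed by library and class and divided by the class total and multiplied by 1000000 (CPM). With 1 library per genotype no test was made: a gene was counted with at least 100 UMIs over both libraries (or both classes), and past 2-fold meant a log2 ratio of at least 1 or at most -1. Intervals are exact Poisson or conditional binomial at 95%. The ratio was tested on simulated data. TMM factors came from edgeR 4.0.16; clusters used 2000 variable genes without collagens, 30 components, 15 neighbours and a Leiden resolution of 1.

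Genes named with values are those with at least 100 UMIs in the class spoken of or past 2-fold there, plus Serpinh1, P4ha1, Plod2 and Ddr2; Lox had 7 and 4 UMIs in stroma-like cells. Bmp1, Mrc2, Ddr1, Itga10, Fn1 and the other members under 100 UMIs were named after their values were seen. Members and lists were chosen with earlier results of these data known. Promoter windows came from RefSeq (29 of 38 members matched).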

Additional observations from a re-analysis of the deposited data

How the results depend on the processing

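No paired analysis was possible because each genotype has 1 library, and none could be left out. Of the collagens past 2-fold, Col4a3, Col4a4, Col4a6, Col11a1 and Col18a1 in stroma and Col11a2, Col12a1 and Col14a1 in epithelium were recomputed. None of these changed sign wherever a value was given. The others past 2-fold were not recomputed, except that the TMM factors place Col7a1 in Pth1r Scube1 stroma short of 2-fold. The count of stroma-like collagens past 2-fold (2) was 1 with all deposited barcodes and 8 with a 20-UMI minimum, where more genes are counted. The stromal sum (0.04) was 0.28 under a stricter gate, 0.16 with cells that also lay in a stromal cluster and 0.15 without Col3a1, and it turned to -0.03 thinned to 500 UMIs per cell; the fibrillar sum (0.14) was 0.38, 0.038 when thinned and 0.39 without Col3a1. The all-cell sum (-0.30) was -0.37 with all barcodes, -0.47 at 5% mitochondrial UMIs and -0.34 thinned. Stroma over epithelium in f/f (3.25) was 3.41 with all barcodes, 3.36 without top doublet scores, 2.98 and 3.61 under looser and stricter gates, 2.78 by clusters, 3.37 with cluster agreement, 3.32 as a mean over cells and 3.35 thinned; in d/d (3.27) it was 3.67, 3.47, 3.10, 4.04, 3.04 and 3.51 under the first 6 of these. The subtype sum in f/f (-0.09) was 0.076 under TMM scaling. Processing and receptor genes past 2-fold (0) numbered 1 at 5% mitochondrial UMIs, 1 under a looser gate, 1 thinned and 2 with a 20-UMI minimum. The cause of these shifts was not tested. Col4a6 stayed between -3.16 and -1.83 over 12 alternatives, Col18a1 between -1.37 and -0.76 (short of 2-fold by clusters and with all barcodes), and Col12a1 in epithelium between -2.76 and -2.04 over 11; Col4a5 in stroma was 0.03 under the stricter gate, and Col3a1 -0.09. The settings on 16-base barcodes and on cluster agreement were chosen after seeing the data. The alternative of 2 stromal sub-clusters gave no subtype value, since both held Pth1r and Scube1 against Col6a4 and Adam12 in like proportion. Depth limits the genes under 100 UMIs most: in d/d stroma-like cells the interval of 0 UMIs reaches 27.6 CPM.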
